A study of Mus musculus with 2 samples.

Results

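The 9 genes Spi1, Cebpa, Cebpb, Cebpd, Maf, Klf2, Klf4, Runx1 and Bhlhe40 encode transcription factors that build or tune the macrophage program. They were taken by symbol from a table of 22060 Ensembl genes, in which all 9 were found, and all 9 passed the filter of a summed count of at least 20 that 11199 genes passed. The T403A library, whose own label reads 403M and is taken as T403A from the series title, came from bone marrow-derived macrophages that carry the T403A substitution (threonine to alanine) in STAT2, the subunit through which type I interferon receptors signal, and the WT library came from wild-type macrophages. Both are labelled C57BL/6, 8 weeks of age and 0 h. Per the labels' protocols, marrow of both genotypes was grown over 7 days in M-CSF, which drives marrow progenitors to become macrophages, and no treatment followed. The sources used here do not state zygosity, sex or how many animals stand behind a library. With 1 library per genotype there is no replicate spread, so no p-value is given and every difference compares these libraries and not the genotypes.

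As background, PU.1 (encoded by Spi1) is an ETS factor that opens macrophage enhancers together with C/EBP proteins, and RUNX1 acts before it, in the progenitors that give rise to myeloid cells. C/EBPalpha, C/EBPbeta and C/EBPdelta are leucine-zipper proteins that can pair with each other: the alpha form is needed for myeloid commitment, and the beta and delta forms are known to be induced by cytokines and microbial products. MAF helps to hold mature macrophages out of the cell cycle and drives genes of resident macrophages. KLF4 is needed for monocyte formation, KLF2 restrains inflammatory activation, and BHLHE40 is a repressor linked to the circadian clock, to cytokine production and to macrophage proliferation.

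The count total was 18658381 for T403A and 16033032 for WT. Stat2, the targeted gene, was at 84.4 CPM in T403A and 376 CPM in WT, where CPM is the count divided by the TMM-scaled library total in units of 1e6 counts. A substitution need not change this count, so it does not check the labels. All 8 defining macrophage markers had counts in both libraries, with a lowest marker at 87.9 CPM in T403A and 127 CPM in WT, and 2 of the 8 were lower in T403A. The wider list of 20 macrophage identity genes held 8 lower and 2 higher ones, at a median of -0.45 on the log2 scale. Marco, a scavenger receptor gene, was 11.6-fold lower (10.8 to 12.4) and Mrc1, the mannose receptor gene, 5.12-fold higher (4.77 to 5.51). Lyz2 and Mpeg1, which had the highest counts of the list, were within 1.5-fold at ratios of 0.814 and 0.9. Defining markers of 9 other cell types of marrow cultures summed to between 0.301 and 33.7 CPM per type in T403A, and between 0.0 and 196 CPM in WT. The highest sums in both libraries were those of 5 monocyte markers, none of them at 0, and of the 4 with enough counts 3 were lower in T403A. The wider lists had 59 of 59 measured interferon-stimulated genes lower in T403A, 39 of 40 cell cycle genes higher, and 14 of 22 immediate early genes lower with none higher. In bulk RNA, fewer cells of a type and less RNA per cell cannot be told apart.

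RefSeq promoter windows (GRCm38.p6) were at hand for 5 of the 9 genes, namely Cebpa, Cebpb, Klf2, Klf4 and both starts of Runx1. The 250 bases before the start are shown for Cebpb and Klf4, whose counts differed most between the libraries, and for Cebpa as the C/EBP gene whose count did not differ by 1.5-fold. The Cebpb window lies at chr2:167688665-167688914 on the plus strand, the Cebpa window at chr7:35119043-35119292 on the plus strand, and the Klf4 window at chr4:55532476-55532725 on the minus strand. Capitals mark GGAA, the core of ETS sites such as those of PU.1, on either strand. The Runx1 stretch of 57 bases (chr16:92826258-92826314, minus strand) comes from the window of the upstream start. Its capitals mark AANNGAAA, the core of an interferon response element, on either strand.
Cebpb: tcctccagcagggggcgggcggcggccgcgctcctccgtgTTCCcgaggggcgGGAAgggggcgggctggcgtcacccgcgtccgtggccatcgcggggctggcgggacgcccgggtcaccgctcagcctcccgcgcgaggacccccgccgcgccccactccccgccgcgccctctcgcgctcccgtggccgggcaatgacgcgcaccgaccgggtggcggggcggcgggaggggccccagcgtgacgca
Cebpa: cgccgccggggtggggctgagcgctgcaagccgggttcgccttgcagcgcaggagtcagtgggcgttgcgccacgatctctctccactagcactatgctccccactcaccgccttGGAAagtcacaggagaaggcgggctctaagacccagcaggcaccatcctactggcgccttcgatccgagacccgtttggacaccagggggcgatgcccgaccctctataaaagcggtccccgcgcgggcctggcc
Klf4: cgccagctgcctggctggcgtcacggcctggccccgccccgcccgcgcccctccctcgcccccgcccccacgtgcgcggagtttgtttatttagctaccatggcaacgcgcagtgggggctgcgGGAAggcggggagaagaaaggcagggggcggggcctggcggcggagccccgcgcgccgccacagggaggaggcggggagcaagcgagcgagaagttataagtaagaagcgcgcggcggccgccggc
Runx1: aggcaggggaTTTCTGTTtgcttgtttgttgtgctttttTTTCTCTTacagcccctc

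A GGAA core was present in the windows of all 5 genes, as it is in 93.4% of the 32851 RefSeq windows of this length. AANNGAAA was found in the upstream Runx1 window, which holds 2 matches, and in none of the other windows of these genes; 21.3% of all windows hold it. Neither TTCNNNGAA, a STAT-type element found in 7.02% of all windows, nor TTNNGNAA, a loose C/EBP element found in 36.8%, was present in any window of the 5 genes. The E-box CACGTG, the letters bound by BHLHE40, was found in the Klf4 window and the upstream Runx1 window, against 6.02% of all windows. The share of G and C was 81.6% for Cebpb, 74% for Klf4, 71.2% for Klf2, 66.4% for Cebpa, and 45.6% and 67.6% for the upstream and downstream starts of Runx1, against a median of 52.4% over all windows. Each motif was searched on both strands, matches are letters and not shown sites, and the rest of these promoters was not searched.

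Cebpb was the factor that differed most. It had 530 counts in T403A and 1314 counts in WT, which is 26.6 CPM in T403A (95% Poisson interval 24.4 to 28.9) and 87.6 CPM in WT (82.9 to 92.5). That made it 3.30-fold lower in T403A, with an exact 95% counting interval of 2.98 to 3.65. Of all measured genes, 3.03% had a ratio as low or lower. Cebpb (ENSMUSG00000056501) lies on chromosome 2 from 167688915 to 167690418 on the plus strand of GRCm38, as 1 protein-coding exon. Of its exon bases, 20.7% overlap Tmem189 on the opposite strand, which was at 81.8 CPM in T403A and 103 CPM in WT. The table does not separate the long and short C/EBPbeta proteins, which come from the same transcript.

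The other C/EBP members differed far less. Cebpa (chromosome 7, 35119293 to 35121928, plus strand) had 1649 counts in T403A and 1151 in WT, or 82.7 CPM in T403A and 76.7 CPM in WT, a ratio of 1.08 (0.999 to 1.16). Cebpd (chromosome 16, 15887286 to 15891031, plus strand) had 2303 counts in T403A and 1455 in WT, or 115 CPM in T403A and 97.0 CPM in WT, a ratio of 1.19 (1.11 to 1.27). The interval of Cebpd left out 1 and that of Cebpa did not, and both ratios were under 1.5-fold. This contrast rests on the scaling, since the log2 ratio of Cebpa was 0.3 with library size scaling, in place of 0.11. Spidr overlaps 15% of the Cebpd exon bases on the opposite strand and was at 30.3 CPM in T403A and 34.1 CPM in WT. Cebpb and Cebpa transcripts share at most 29 identical bases in a row and Cebpb and Cebpd at most 27.

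Klf4 was the only 1 of the 9 that was at least 1.5-fold higher in T403A. It had 513 counts in T403A and 230 counts in WT, which is 25.7 CPM in T403A (23.5 to 28.1) and 15.3 CPM in WT (13.4 to 17.4), a ratio of 1.68 (1.43 to 1.97). Klf4 (ENSMUSG00000003032, chromosome 4, 55527143 to 55532466, minus strand) overlaps no other annotated exon. Klf2 (chromosome 8, 72319033 to 72321656, plus strand) had 1186 counts in T403A and 765 in WT, or 59.5 CPM in T403A and 51.0 CPM in WT, a ratio of 1.17 (1.06 to 1.28). Both KLF genes thus had more scaled counts in T403A, with a ratio past 1.5-fold for Klf4 alone.

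Spi1 and Maf, the most abundant of the 9, were lower in T403A by less than 1.5-fold. Spi1 (ENSMUSG00000002111, chromosome 2, 91082390 to 91115756, plus strand) had 8073 counts in T403A and 8027 in WT, or 405 CPM in T403A (396 to 414) and 535 CPM in WT (523 to 547), 1.32-fold lower (1.28 to 1.36). Maf (ENSMUSG00000055435, chromosome 8, 115682942 to 115707794, minus strand) had 7797 counts in T403A and 7959 in WT, or 391 CPM in T403A and 531 CPM in WT, 1.36-fold lower (1.31 to 1.40). Their raw counts were nearly equal in the libraries, so the size of both differences rests on the scaling: with library size scaling the log2 ratio was -0.21 for Spi1 and -0.25 for Maf, in place of -0.40 and -0.44.

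Runx1 and Bhlhe40 had intervals that included 1. Runx1 (chromosome 16, 92601466 to 92826149, minus strand) had 2515 counts in T403A and 1935 in WT, or 126 CPM in T403A and 129 CPM in WT, a ratio of 0.978 (0.921 to 1.04). Its log2 ratio of -0.03 became 0.16 with library size scaling. Bhlhe40 (chromosome 6, 108660629 to 108666925, plus strand) had 285 counts in T403A and 192 in WT, or 14.3 CPM in T403A and 12.8 CPM in WT, a ratio of 1.12 (0.927 to 1.35). It had the lowest count of the 9 and the widest interval in relation to its ratio.

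**Figure D1:**
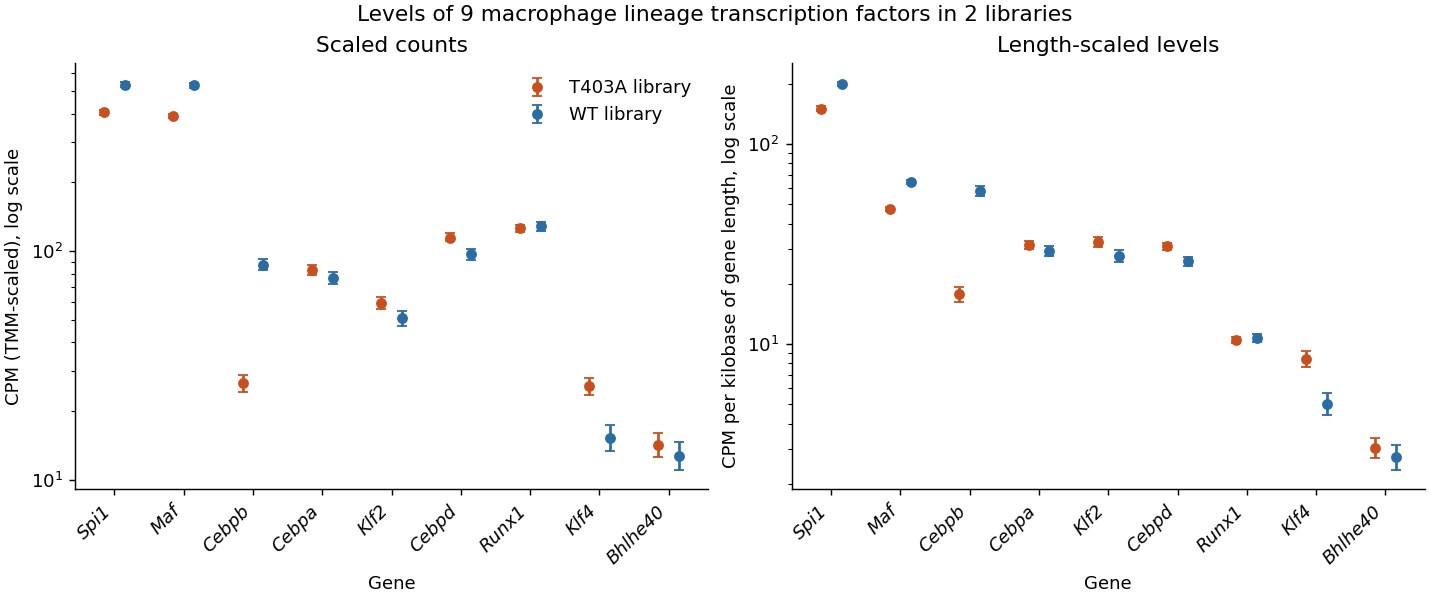
CPM (left) and CPM per kilobase of the deposited gene length (right) of the 9 factors in the T403A and WT libraries, on log axes. Points are single libraries and bars are exact 95% Poisson intervals. Cebpb stands at 26.6 CPM in T403A and 87.6 CPM in WT, and Klf4 at 25.7 CPM in T403A and 15.3 CPM in WT.

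In total 1 of the 9 factors was at least 1.5-fold higher in T403A with an interval that left out 1 (Klf4), 1 was lower (Cebpb) and 7 met neither condition. Among all measured genes, 13.5% were higher and 10.8% lower by the same rule, which comes to 24.4% in either direction, so the 2 of 9 were close to the share of all genes. Scaling by library size turned the 1515 higher and 1214 lower genes into 2290 higher and 890 lower, while the counts of the factors stayed at 1 and 1. The median log2 ratio was 0.11 for the 9 factors and 0.01 for all measured genes. At 2-fold, Cebpb alone met the condition, where 6.08% of all genes were lower and 7.21% higher. These shares of all genes also stand beside the counts of higher and lower genes given for each family and list.

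**Figure D2:**
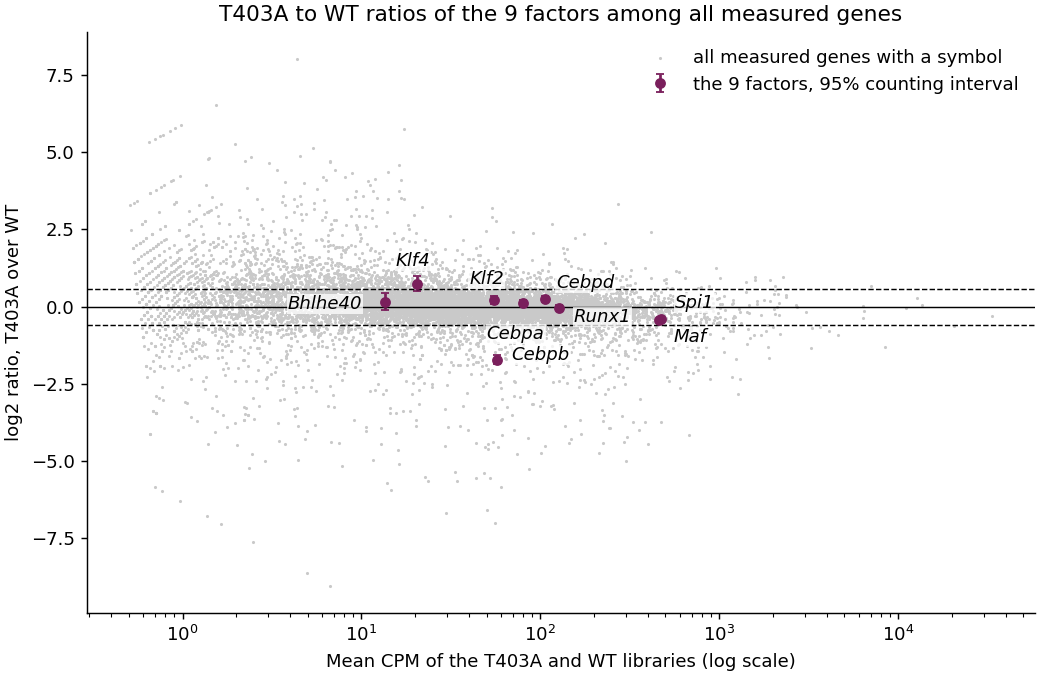
Log2 ratio of T403A over WT (y axis) against the mean CPM of the libraries (x axis, log scale) for all measured genes with a symbol (grey) and the 9 factors (purple, with exact 95% counting intervals). Dashed lines mark 1.5-fold; Klf4 at 0.74 lies above the upper line and Cebpb at -1.72 below the lower line.

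Levels of different genes were compared per kilobase of the deposited gene length, which equals the union of annotated exons for each of the 9. In T403A the order was Spi1 (150 CPM per kilobase), Maf (47.4), Klf2 (32.2), Cebpa (31.4), Cebpd (30.8), Cebpb (17.7), Runx1 (10.5), Klf4 (8.44) and Bhlhe40 (3.04). In WT it was Spi1 (199 CPM per kilobase), Maf (64.4), Cebpb (58.2), Cebpa (29.1), Klf2 (27.6), Cebpd (25.9), Runx1 (10.7), Klf4 (5.03) and Bhlhe40 (2.72). The Poisson intervals of Klf2 and Cebpa overlapped in T403A, as did those of Cebpa and Cebpd, and in WT those of Cebpa and Klf2 and of Klf2 and Cebpd overlapped, so these neighbours were not ordered beyond counting error. Cebpb held rank 6 in T403A and rank 3 in WT. Spi1 stood at percentile 98.2 of measured genes by this level in T403A and 98.4 in WT, and Bhlhe40 at 31.4 in T403A and 30.2 in WT.

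Ratios of related genes within a library do not depend on the scaling between libraries. Cebpb stood at 0.563 times the length-scaled level of Cebpa in T403A and at 2.0 times in WT, so this ratio was 3.55-fold lower in T403A (95% Woolf interval on the 4 counts 3.13 to 4.03). Cebpd stood at 1.74 times Cebpb in T403A and 0.445 times in WT, a ratio 3.92-fold higher in T403A (3.48 to 4.43). The ratio of Cebpd to Cebpa, a pair added after the data were seen, was 0.983 in T403A and 0.89 in WT, a quotient of 1.1 (1.0 to 1.22). Klf4 relative to Klf2 was 0.262 in T403A and 0.182 in WT, 1.44-fold higher in T403A (1.2 to 1.72). Spi1 relative to Cebpa was 4.79 in T403A and 6.82 in WT, 1.42-fold lower in T403A (1.31 to 1.55).

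The C/EBP family as a whole was made up differently in the libraries. Of the summed length-scaled level of 7 genes with a C/EBP name or fold, Cebpb held 17.2% in T403A and 42.0% in WT. Cebpa held 30.5% in T403A and 21.0% in WT, and Cebpd held 30.0% in T403A and 18.7% in WT. Cebpg, a short C/EBP protein that pairs with the others, had a ratio of 1.12 (1.02 to 1.22). Cebpz, which is named for CCAAT binding but is no leucine-zipper protein, had a ratio of 0.908 (0.82 to 1.01). Ddit3, the stress-induced CHOP protein that pairs with C/EBP factors, was at 6.32 CPM in T403A and 10.7 CPM in WT, with a ratio of 0.592 (0.465 to 0.753). Of 6 measured genes of the family 2 were lower, Cebpb and Ddit3, or 1, Cebpb, with library size scaling or at 2-fold, and none was higher. Cebpe, a factor of late granulocytes, had 5 counts in T403A and 3 in WT and was not measured.

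**Figure D3:**
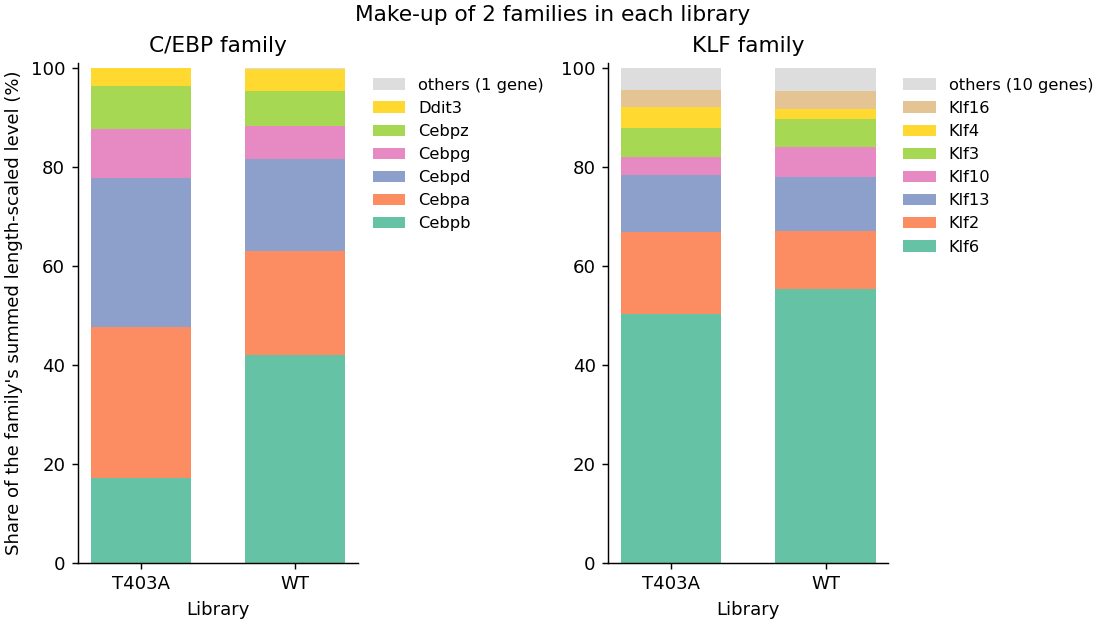
Share of the summed length-scaled level of the C/EBP and KLF families (y axis, percent) held by each gene in the T403A and WT libraries. Grey pools genes under 3% in both libraries. Cebpb holds 17.2% of its family in T403A and 42.0% in WT, and Klf4 holds 4.33% in T403A and 2.15% in WT.

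Of the small MAF proteins, which lack an activation domain, Maff was at 5.87 CPM in T403A and 9.27 CPM in WT, a ratio of 0.633 (0.491 to 0.816). Mafg had a ratio of 0.839 (0.8 to 0.88) and Mafk of 0.706 (0.632 to 0.789). Maff was thus lower by the rule, while Mafg and Mafk were within 1.5-fold. With library size scaling, which adds 0.19 to every log2 ratio, the log2 ratio of -0.66 of Maff no longer met the rule.

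Genes of the KLF family differed in both directions, as did all measured genes, of which 13.5% were higher and 10.8% lower. Of 11 measured KLF genes 3 were higher in T403A (Klf4, Klf8 and Klf9), 3 were lower (Klf7, Klf10 and Klf11) and 5 did not meet the rule. Their median log2 ratio was -0.23, or -0.40 over the 9 besides Klf2 and Klf4. At 2-fold none was higher and 1 was lower, Klf11. Klf8 had a ratio of 1.72 (1.27 to 2.34) and the glucocorticoid-responsive Klf9 of 1.58 (1.25 to 2.01). Klf10 and Klf11, both induced by TGF-beta in other cells, had ratios of 0.512 (0.461 to 0.569) and 0.43 (0.341 to 0.541), and Klf7 of 0.555. Klf6, an early response gene, held most of the family's length-scaled level, 50.3% in T403A and 55.3% in WT, at a ratio of 0.757. Klf2 held 16.5% of it in T403A and 11.8% in WT, and Klf4 held 4.33% in T403A and 2.15% in WT.

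Some relatives of Runx1 and Bhlhe40 were higher where the factors themselves were within 1.5-fold. Runx2, the RUNX protein of bone-forming cells, was at 10.6 CPM in T403A and 5.67 CPM in WT, a ratio of 1.87 (1.45 to 2.43). Per length, Runx1 stood at 8.76 times Runx2 in T403A and 16.7 times in WT. Cbfb, the partner that RUNX proteins need on DNA, had a ratio of 0.698 (0.66 to 0.739). Cbfa2t3, a corepressor, was higher on 19 counts in T403A and 3 counts in WT, a ratio of 4.76 (1.4 to 25.1), and was the 1 gene of the RUNX group past 2-fold. Bhlhe41, the close relative of Bhlhe40, was at 65.1 CPM in T403A and 35.3 CPM in WT, a ratio of 1.84 (1.67 to 2.04). Bhlhe40 relative to Bhlhe41 was 0.313 in T403A and 0.517 in WT, 1.65-fold lower in T403A (1.34 to 2.04).

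Among 16 measured ETS genes, Spi1 held close to the same share of the summed length-scaled level in both libraries, 46.2% in T403A and 48.1% in WT. No ETS gene was higher, 5 were lower (Etv5, Ets1, Spic, Elk3 and Etv6) and 11 did not meet the rule. The median over the ETS genes was a log2 ratio of -0.30. At 2-fold 2 were lower, Etv5 and Ets1. Etv5, a target of growth factor signalling, was at 9.83 CPM in T403A and 41.7 CPM in WT, 4.25-fold lower (3.61 to 5.01). Spib, the closest PU.1 relative of lymphoid cells, had 10 counts in T403A and 4 in WT and was not measured. Fli1 had a ratio of 1.04 (0.973 to 1.11).

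**Figure D4:**
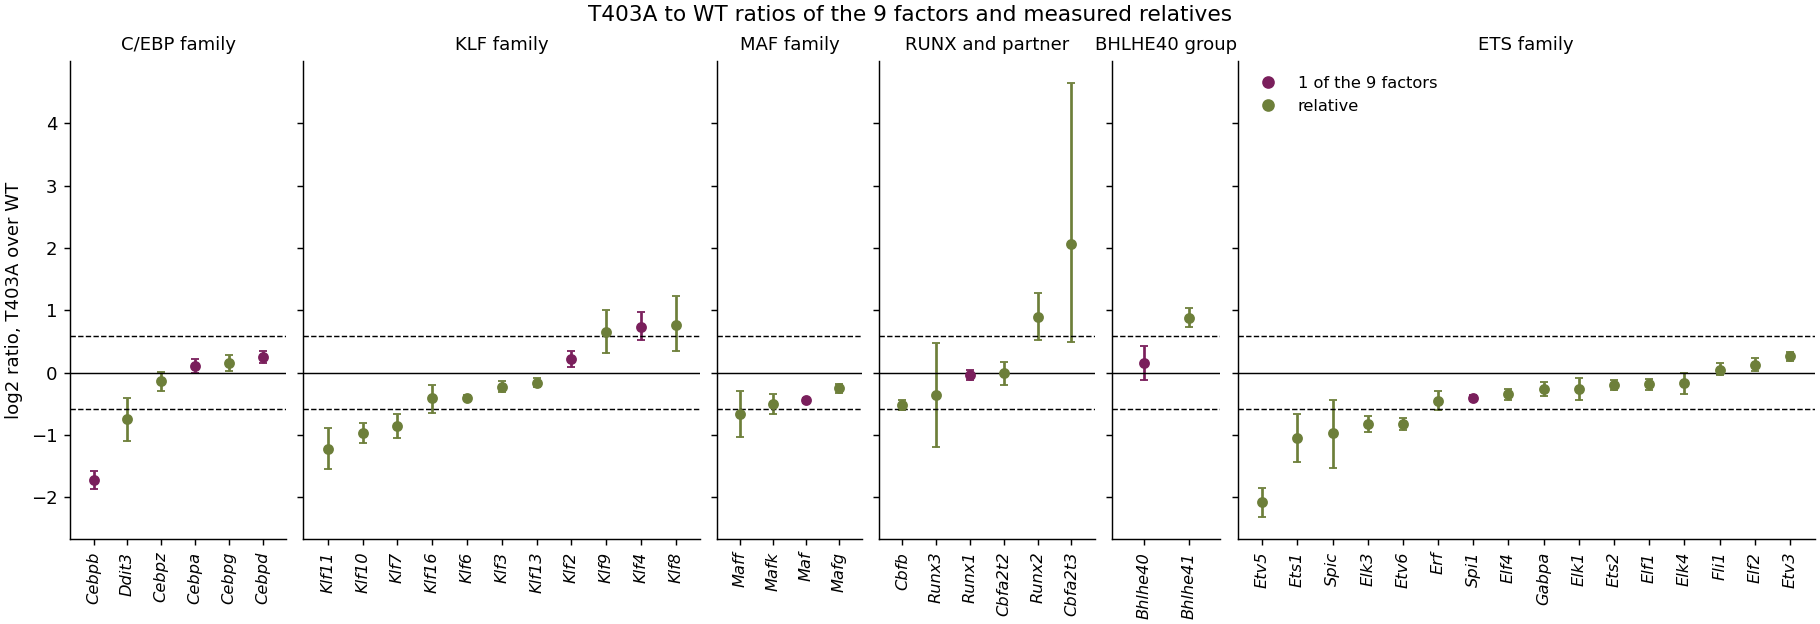
Log2 ratio of T403A over WT for measured genes of 6 groups, ordered by ratio within each group, with exact 95% counting intervals; purple marks the 9 factors and green their relatives. Dashed lines mark 1.5-fold. Cebpb and Etv5 lie lowest in their groups, and Klf4, Bhlhe41 and Runx2 lie above the upper line.

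Other transcription factors of myeloid cells were listed as well, and 18 of 49 measured genes were lower in T403A, 3 were higher and 28 met neither condition (median log2 ratio -0.34). The largest ratios were those of Id3 and Id1, inhibitors of basic helix-loop-helix factors that respond to BMP signals. Id3 was at 5.12 CPM in T403A and 142 CPM in WT, 27.7-fold lower (22.7 to 34.1), and Id1 was 22.1-fold lower on 13 counts in T403A and 216 in WT. Zeb2, a repressor that maintains macrophage identity and the most abundant gene of the list with Klf6, was within 1.5-fold at 732 CPM in T403A and 918 CPM in WT. The 3 higher genes, named after their values were seen, were Tfec (log2 ratio 0.88), Irf4 (0.83) and Lmo2 (0.71), and none of them reached 2-fold.

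Genes known as targets of the 9 factors were examined by lists that draw on textbook knowledge and not on binding data. The C/EBP target list had 11 of 15 measured genes lower in T403A and 2 higher, and its median log2 ratio stood at -1.51. Of its 7 genes outside the macrophage identity, monocyte, neutrophil, progenitor, immediate early and interferon-stimulated lists, 6 were measured and all 6 were lower. The lists of other cell types and of the cell cycle were not part of this split. Absence from a short list does not show that a gene is free of those cells or states, so their part was not tested. Il1b, the interleukin-1beta gene, was at 4.46 CPM in T403A and 97.1 CPM in WT, 21.7-fold lower (17.5 to 27.2). Arg1, the arginase gene, had 3 counts in T403A and 71 in WT, a ratio of 0.0318 (0.0064 to 0.0967). Cd14, the lipopolysaccharide co-receptor gene, was 3.21-fold lower (3.14 to 3.28), and the lysozyme gene Lyz2 was within 1.5-fold at 29804 CPM in T403A and 36620 CPM in WT. The 2 higher genes, named after their values were seen, were the granule genes S100a9 (77 counts in T403A, 28 in WT) and Ltf (64 in T403A, 25 in WT), of which S100a9 alone passed 2-fold. Of the 18 listed genes, 6 are also on the neutrophil list, of which 4 of 9 measured genes were lower and 3 higher, and which summed to 248 CPM in T403A and 350 CPM in WT. The list also shares Hp with the monocyte list, where 7 of 11 were lower (summed 304 CPM in T403A and 1004 CPM in WT). The part of these cells, and of Cebpb, in the values of the list was not tested.

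The PU.1 list had 10 of 24 genes lower and none higher (median log2 ratio -0.32), or 5 lower at 2-fold. Of its genes, 12 are also on the macrophage identity list. The part of that list, of Spi1 and of interferon signalling in these values was not tested. The Fc receptor gene Fcgr1 was 8.76-fold lower (8.21 to 9.36) and the scavenger receptor gene Msr1 3.62-fold lower (3.48 to 3.76), while Lyz2 and the perforin-like Mpeg1, at 6129 CPM in T403A and 6812 CPM in WT, were within 1.5-fold. The RUNX1 list, which includes Spi1, Cebpa and Runx1, had 3 of 9 lower and none higher (median -0.38). Without those 3 factors it had 3 of 6 lower, with a median of -0.75. In it the integrin gene Itgal was 6.14-fold lower (5.92 to 6.38), Csf2rb 2.17-fold lower, and the M-CSF receptor gene Csf1r within 1.5-fold at 5503 CPM in T403A and 7146 CPM in WT.

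The list of KLF2 and KLF4 targets had 8 of 12 genes lower and 1 higher (median -0.82). The higher gene was Mrc1, the mannose receptor gene, at 295 CPM in T403A and 57.5 CPM in WT, 5.12-fold higher (4.77 to 5.51). Hif1a, which KLF2 is known to restrain, was at 138 CPM in T403A and 366 CPM in WT, 2.64-fold lower (2.53 to 2.77). Arg1, with 3 counts in T403A and 71 in WT, was 31.5-fold lower (10.3 to 156), and Cd14 was 3.21-fold lower. The list was not split into genes that these factors raise and genes that they restrain. At 2-fold 5 genes of the list were lower.

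BHLHE40 targets, a list that includes Maf and Bhlhe40 itself, had 3 of 14 genes higher. The median log2 ratio was -0.06, and it was above 0 with library size scaling (0.13) and upper quartile scaling (0.01). At 2-fold 1 gene was higher, Dbp. The clock output gene Dbp had 260 counts in T403A and 39 in WT, a ratio of 5.02 (3.57 to 7.22). The other higher genes were Bhlhe41 and, named after its value was seen, Nr1d1 (80 counts in T403A, 33 in WT). The sources used here do not state the time of day of harvest.

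**Figure D5:**
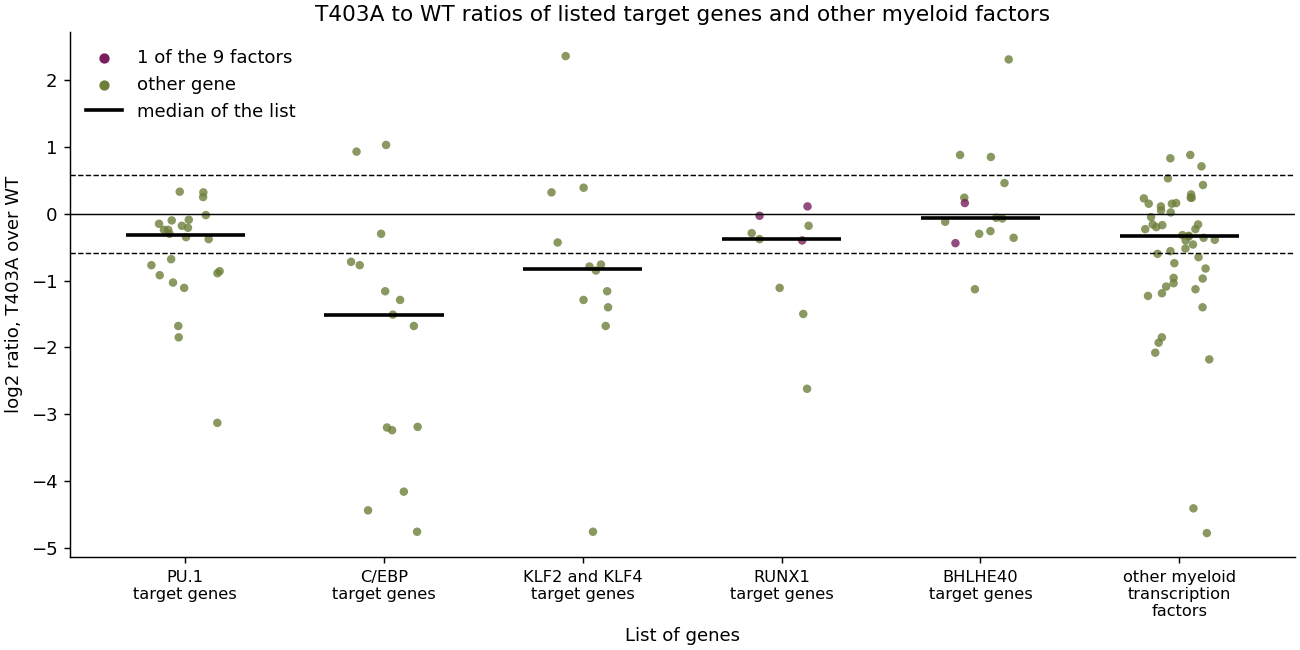
Log2 ratio of T403A over WT for each measured gene of 5 lists of target genes and of the list of other myeloid transcription factors; purple marks the 9 factors, black bars are list medians and dashed lines mark 1.5-fold. The medians run from -1.51 for the C/EBP list to -0.06 for the BHLHE40 list.

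Early response genes stand beside these values, since Cebpb, Cebpd, Klf2 and Klf4 are themselves known to respond to handling and stimulation. Of 22 measured immediate early genes 14 were lower and none was higher in T403A (median log2 ratio -1.0), and the list summed to 1422 CPM in T403A and 2545 CPM in WT. Fos was at 99.5 CPM in T403A and 421 CPM in WT. Cebpb was lower with most of this list, whereas Cebpd and Klf2 were within 1.5-fold and Klf4 was higher. The part of early response genes in the values of the factors was not tested.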

How the data were processed

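The authors sequenced RNA of 2 libraries, 1 per genotype (1 μg of total RNA each, per the labels). Their deposited table gives raw read counts for each Ensembl gene beside its length, per the file headers. Per the submitters' processing notes, GRCm38 was the build and the tools were cutadapt 1.15, HTSeq 0.9.1, HISAT2 and DESeq 1.30.0. Their roles, the annotation and whether counting used strand are not stated in the sources used here. Reads of antisense overlaps may therefore be given to either gene or left out. This also touches Maf (5.34% of exon bases), Bhlhe40 (2.51%), Cebpa (1.93%) and Runx1 (0.881%).

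Symbols matched 21969 of 22060 identifiers. Counts were scaled with TMM (edgeR 4.0.16, R 4.3.3). Ratios of T403A over WT carry exact 95% Clopper-Pearson intervals and single values exact Poisson intervals (scipy 1.17.1), both for counting error only, and log2 ratios use a prior count of 0.5. Genes counted as measured from a sum of 20 counts over the libraries, and were called higher or lower at 1.5-fold with an interval that left out 1. The script was tested on simulated data. Alternatives were library size, DESeq2 1.42.0 and upper quartile scaling, TMM without the interferon-stimulated and cell cycle lists, other count filters, a 2-fold rule and levels not divided by length.

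Results on 1 relative and 1 target list are not reported here. Positions are from GENCODE M21 and promoters from RefSeq. The rule for named genes took the 9 factors, their measured families, Stat2 and, per other list, the 2 largest ratios and 2 highest counts; Fos, Klf6 and other genes in more than 1 list count in each. The factors and lists were chosen with earlier results of these data known.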

Additional observations from a re-analysis of the deposited data

How the results depend on the processing

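The counts of 1 higher and 1 lower factor were the same under library size, DESeq2 and upper quartile scaling, TMM without the interferon-stimulated and cell cycle lists, and both other count filters. Under the 2-fold rule the count of higher factors was 0, since Klf4 has a ratio of 1.68, and the count of lower factors stayed at 1. The median log2 ratio of the 9 factors was 0.3 with library size scaling, against 0.11, because that scaling adds 0.19 to the log2 ratio of every gene, which put the median of all measured genes at 0.2, against 0.01; DESeq2 size factors and upper quartile scaling moved it by -0.01 and 0.07. Over all settings the log2 ratio ran from -1.73 to -1.53 for Cebpb and from 0.74 to 0.94 for Klf4. With counts not divided by gene length, 8 of the 18 ranks (9 factors in 2 libraries) stayed the same, because the gene lengths differ. Most family shares of the factors moved as well. The Cebpb share became 8.04% in T403A and 23.7% in WT, still lower in T403A, and Cebpd held the largest C/EBP share in WT, at 26.2%. The Spi1 share of the ETS genes became 28.1% in T403A and 30.3% in WT. Ratios within a library compared between libraries do not depend on length. No paired analysis was possible because each genotype has 1 library, and for the same reason no replicate could be left out. Depth limits Bhlhe40 most, at 285 counts in T403A and 192 in WT.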
